A study of Mus musculus with 26 samples.

Results

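Rods and cones pass the light signal to bipolar cells at a ribbon synapse, where a plate-like ribbon holds glutamate-loaded vesicles next to the calcium channels that trigger their release. In the dark the photoreceptor is depolarized, the channels are open and glutamate flows steadily. Light closes the cyclic nucleotide-gated channels of the outer segment, the cell hyperpolarizes and release slows. Mutations in several genes of this synapse are known to cause night blindness or cone-rod disease, and photoreceptor terminals are known to retract and lose ribbons during retinal degeneration.

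The 10 genes described here were chosen by their known place in this terminal, out of 37991 genes in the table of counts. They include the channel genes Cacna1f, Cacna2d4 and Cabp4 and the scaffold genes Ctbp2, Bsn and Pclo. The others are the vesicle and fusion genes Slc17a7 and Stx3, the chaperone gene Unc119 and the trans-synaptic gene Elfn1. Each matched 1 gene identifier, and all 10 passed the filter on low counts in all 5 comparisons. The lowest count of any of them in any library was 144, for Bsn in sorted rods.

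Whole retinas came from rd10 mice (B6.CXB1-Pde6brd10/J), which carry a mutation in Pde6b, the gene of a phosphodiesterase subunit that rods need to answer light, and whose rods die in the weeks after birth. Mice received intraperitoneal saline (control) or an inhibitor from PN9 (postnatal day 9) and retinas were collected at PN24; the study describes the DZNep schedule in more than 1 way. DZNep and UNC1999 act against EZH2, the enzyme that writes the repressive histone mark H3K27me3 (4 control and 2 DZNep libraries, 3 control and 3 UNC1999 libraries). The study describes UNC1999 as the more specific of these 2 inhibitors. UNC0642 inhibits the H3K9 methyltransferases G9a and GLP (2 control and 2 treated libraries), and Romidepsin inhibits histone deacetylases (3 and 3). In the fifth experiment rods were sorted from rd10 mice that also carried the Nrl-EGFP transgene B6.Cg-Tg(Nrl-EGFP)1Asw/J, in which the rod-specific Nrl promoter drives EGFP, after saline or the LSD1 inhibitor GSK2879552 (2 and 2). All mice, controls included, were rd10, and both sexes were used. The labels name saline as the control also for UNC1999, which according to the methods of the study was dissolved in a mixture that held DMSO, PEG300 and Tween. The labels call the libraries biological replicates but do not give how many mice went into each. The p-values therefore measure the spread between these libraries, which may in part be technical.

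Between 13732959 and 36354094 reads were counted in a retina library, and between 7289460 and 19864491 in a library of sorted rods. Values are given as CPM, counts brought to a common library size with TMM factors within an experiment. The 20 rod markers summed to 11817 to 84596 CPM in the retinas and to 74647 to 108547 CPM in the sorted rods, so that the ranges overlapped. In the sorted rods the amacrine gene Slc32a1 was at 0.134 to 0.908 CPM against 142 to 247 CPM in the retinas. The RPE gene Rpe65 was at 0 in all 4 libraries. Other amacrine markers were higher in the sort, and the 9 of them summed to 178 to 369 CPM against 2283 to 3393 CPM. Müller markers summed to 278 to 490 CPM in the sort against 4688 to 10733 CPM in the retinas. Microglial markers summed to 67 to 86.1 CPM against 165 to 983 CPM. Bipolar markers were not at 0 in the sort: the 10 of them summed to 560 to 856 CPM there against 1590 to 2563 CPM in the retinas. Cone markers were not lower in the sort, with sums of 1101 to 3169 CPM against 445 to 1999 CPM in the retinas.

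On the mouse build NCBIM37, the one used for the counts, the channel genes lie at X:7184209-7212322 (Cacna1f), 6:119186544-119302425 (Cacna2d4) and 19:4135425-4139609 (Cabp4). The scaffold genes lie at 7:140179246-140316037 (Ctbp2), 9:107998354-108092715 (Bsn) and 5:14514918-14863457 (Pclo). Slc17a7 lies at 7:52419291-52431508, Stx3 at 19:11849609-11893893, Unc119 at 11:78156984-78162666 and Elfn1 at 5:140383897-140450665. Exon lengths differed widely, from 1431 bases in Cabp4 to 15937 in Bsn and 20439 in Pclo. Ctbp2 shared 314 exon bases with Fgfr2 on the same strand, and Bsn shared 1813 with F630040L22Rik on the opposite strand. Whether the counting used strand is not given in the sources used here, so reads in those bases are uncertain.

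Ctbp2 codes for 2 products: CtBP2, a nuclear corepressor found in many cells, and RIBEYE, the main protein of the ribbon, which is made from a start of its own inside the gene. A count per gene adds them up. In the annotation of that build the transcript with the longest coding sequence, 988 codons, began at an internal start (position 140206931), while a transcript of 445 codons began far upstream. A transcript of 420 codons also began inside the gene, near the long one (position 140207173). RefSeq promoter windows (build GRCm38.p6, 250 bases before to 50 after a start) were found for 8 of the 10 genes, 11 windows in all, and the start of 1 of the 2 Ctbp2 windows, placed on NCBIM37 by its sequence, lay 1 base from that of the long transcript. Cacna2d4 and Cabp4 had no window in the table.

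These windows were searched on both strands for TAATCC and for the shorter GATTA, letters known to be bound by the photoreceptor homeodomain factors CRX and OTX2. On the other strand the first ends in the letters of the second, so every match of the first is also a match of the second. TAATCC was present in 3 of the 11 windows, those of Ctbp2, Unc119 and Stx3, and in 7.06% of all 32851 windows. GATTA was present in 4 of the 11, with Cacna1f added, and in 22% of all. The E-box CANNTG was in 9 of the 11 and in 72.3% of all, and the CCAAT box in 4 of the 11 and in 37.4% of all. With so few windows the counts are a description and not a test. The stretches with TAATCC or GATTA are shown, on the strand of the gene and with those letters (read on either strand) in capitals, because they hold the matches of these motifs:

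Ctbp2, long transcript, chr7:133015350-133015379, minus strand: aaggtttcagaGGATTAataatttaggtcg

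Stx3, chr19:11819356-11819385, minus strand: ccactagcatcaTAATCCccaaattcctcg

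Cacna1f, chrX:7607065-7607094, plus strand: gccccgtgacctTAATCtctctaaggctgg

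Unc119, chr11:78345334-78345583, plus strand: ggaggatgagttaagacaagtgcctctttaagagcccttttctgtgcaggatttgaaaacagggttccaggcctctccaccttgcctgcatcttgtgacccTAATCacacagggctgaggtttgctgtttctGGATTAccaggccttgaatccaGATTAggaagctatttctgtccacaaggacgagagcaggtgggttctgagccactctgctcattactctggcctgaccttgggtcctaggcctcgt

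The motif began 121 bases before the start in Ctbp2 and 26 bases before it in Cacna1f, and 30 bases after it in Stx3. All 30 bases shown for Ctbp2 and for Stx3 lie in annotated exons, as do 12 of the 30 for Cacna1f and none of those for Unc119. In Unc119 the 250 bases belong to the middle of 3 windows and hold 3 GATTA, at 149, 117 and 96 bases before the start, of which the one at 117 lies within TAATCC. The start of that Unc119 window lies 1082 bases from the nearest annotated transcript start. The windows of Bsn, Pclo, Slc17a7 and Elfn1 held neither TAATCC nor GATTA.

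Per kilobase of exon, the order of the levels in the 4 DZNep control retinas ran from Slc17a7 (495 ± 37.2 CPM per kb, SD, n = 4), the vesicular glutamate transporter VGLUT1, through Unc119 (347 ± 43.6) and Stx3 (89.1 ± 7.07) to Cacna2d4 (69.1 ± 4.13). Cabp4 (54.4 ± 8.84) and Ctbp2 (48.0 ± 1.67) followed and overlapped with each other. Below them were Cacna1f (27.1 ± 1.56), Elfn1 (22.6 ± 1.92), Bsn (16.9 ± 0.863) and Pclo (11.2 ± 0.459). All neighbours in this order other than Cabp4 and Ctbp2 had libraries that did not overlap. In the control sorted rods Unc119 stood first (816 ± 189 CPM per kb, n = 2) and Bsn last (1.21 in both libraries).

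The 12 control retinas and the 2 control libraries of sorted rods are set side by side for each gene. Levels in the sort cannot be credited to rods alone, given its cone marker sums. Cacna1f, which codes for the pore of the L-type calcium channel of photoreceptor terminals, was at 124 to 256 CPM in the control retinas (median 190) and at 1051 and 548 CPM in the sorted rods. Cabp4, whose protein binds that channel and lets it open at more negative voltage, was at 45.2 to 110 CPM in retinas (median 68.3) and at 247 and 248 CPM in rods. Unc119, a lipid-binding chaperone of rod proteins that also binds CaBP4 and RIBEYE, was at 535 to 966 CPM in retinas and at 1671 and 2326 CPM in rods. For these genes, and for Cacna2d4 (339 to 435 CPM against 741 and 516) and Stx3 (347 to 595 CPM against 714 and 680), both rod libraries lay above all 12 retinas.

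Bsn was the opposite case, at 166 to 299 CPM in the retinas (median 261) and at 19.3 CPM in both rod libraries. Its product Bassoon ties the ribbon to the membrane and is also present at conventional synapses of other retinal neurons. Slc17a7 (845 to 1692 CPM in retinas, 456 and 529 in rods) and Elfn1 (68.2 to 114 CPM in retinas, 51.4 and 47.0 in rods) also lay below all 12 retinas in both rod libraries. Ctbp2 (277 to 346 CPM against 236 and 337) and Pclo (118 to 292 CPM against 165 and 101) overlapped. Sorted rods were prepared with a different kit from the retinas and normalised apart, so these levels are set side by side with no test. Long transcripts as a whole were lower in the sorted rods: the median of 148 genes with over 15 kb of exon was 5.65 to 5.94 log2 CPM there and 6.31 to 7.12 in the retinas, and Bsn and Pclo are among such genes.

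**Figure D1:**
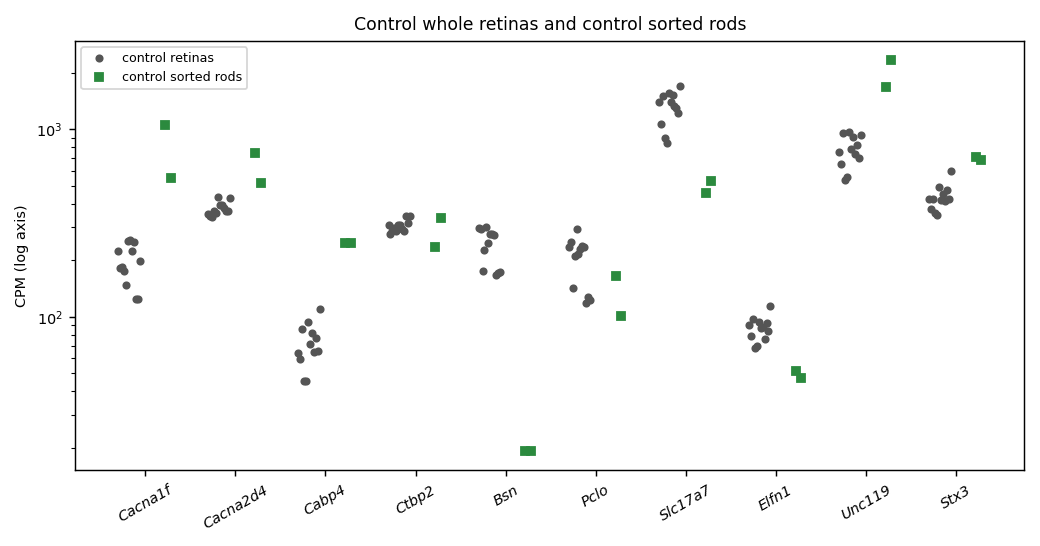
CPM (log axis) of the 10 genes in 12 control retinas (circles) and 2 control libraries of sorted rods (squares). Both rod libraries lie above every retina for Cacna1f, Cacna2d4, Cabp4, Unc119 and Stx3, and below every retina for Bsn, Slc17a7 and Elfn1.

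Among the control retinas, levels differed between the highest and the lowest library by 2.47 times for Pclo, 2.43 times for Cabp4 and 2.06 times for Cacna1f, and by 1.25 times for Ctbp2. Each treatment was therefore read against the controls of its own experiment, and no control was shared between comparisons.

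DZNep raised 7 of the 10 genes. Cabp4 and Unc119 rose most, by 1.94 and 1.87 times, followed by Elfn1, Stx3, Slc17a7, Ctbp2 and Cacna2d4, while the pore gene Cacna1f and the large scaffold genes Bsn and Pclo did not pass the test. Genes count as called here where the quasi-likelihood test of edgeR gave a p under 0.05 after adjustment over all genes tested by the method of Benjamini and Hochberg, and 12.9% of 16477 genes were called higher and 9.72% lower. No member was called lower. The same 7 genes had both treated libraries above all 4 controls, as did 24.4% of all genes. With an absolute log2 fold change above 1 also required, none of the 10 was called, against 1.02% of all genes called higher. The median log2 fold change was 0.44 over the 10 genes and -0.001 over all genes tested.

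In the channel complex, Cabp4 was at 93.3, 71.3, 82.4 and 64.5 CPM in the controls and at 160 and 142 CPM after DZNep, a log2 fold change of 0.96 ± 0.125 (SE; edgeR adjusted p = 0.00147). Cacna2d4, the gene of the α2δ-4 subunit that helps bring the channel to the terminal, was at 435, 392, 396 and 380 CPM against 507 and 480 (0.30 ± 0.0626, edgeR adjusted p = 0.0106). Cacna1f was at 253, 256, 225 and 250 CPM against 244 and 237 (-0.03 ± 0.0588, edgeR adjusted p = 0.718). The control and treated libraries thus stood apart for the 2 accessory genes and overlapped for the pore gene, whose 95% interval, -0.17 to 0.10, leaves out the changes of the other 2. Without treated replicate 1, Cacna2d4 no longer passed the test (edgeR adjusted p = 0.11).

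Of the scaffold genes, Ctbp2 was at 309, 307, 292 and 288 CPM in the controls and at 408 and 383 CPM after DZNep (0.41 ± 0.0514, edgeR adjusted p = 0.00135), without overlap. Bsn was at 248, 277, 277 and 273 CPM against 218 and 261 (-0.17 ± 0.0773, edgeR adjusted p = 0.148). Pclo, whose product Piccolo is a large relative of Bassoon and exists in photoreceptors mainly as a short form, was at 216, 230, 237 and 234 CPM against 195 and 235 (-0.10 ± 0.0737, edgeR adjusted p = 0.378). For Bsn and Pclo the higher of the treated libraries lay inside the range of the controls. Bsn was called lower without treated replicate 2 (log2 fold change -0.30, edgeR adjusted p = 0.0439), and there 4.47% of all genes were called lower.

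The chaperone gene Unc119 and the vesicle and fusion genes Stx3 and Slc17a7 all rose. Unc119 was at 966, 785, 911 and 737 CPM against 1626 and 1557 (0.91 ± 0.103, edgeR adjusted p = 0.001). Stx3, which codes for the syntaxin that ribbon synapses use for vesicle fusion, was at 490, 419, 452 and 414 CPM against 697 and 642 (0.59 ± 0.0755, edgeR adjusted p = 0.00135). Slc17a7 was at 1564, 1400, 1526 and 1329 CPM against 2029 and 2021 (0.48 ± 0.0774, edgeR adjusted p = 0.00357). In each of them the lower treated library was well above the highest control. Elfn1, which codes for an adhesion protein that reaches across the cleft to the mGluR6 receptor of rod bipolar cells, was at 93.7, 87.1, 87.9 and 76.1 CPM against 147 and 131 (0.69 ± 0.0798, edgeR adjusted p = 0.00105).

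All 20 rod markers were called higher in the same comparison. Their median log2 fold change was 1.18, and their summed level was 23410 to 38653 CPM in the controls and 70366 and 72963 CPM after DZNep. Every one of the 10 synapse genes was below that median, Cabp4 by 0.22 and Unc119 by 0.28 on the log2 scale, Ctbp2 by 0.77 and Cacna1f by 1.21. Cone markers summed to 1624 to 1999 CPM in the controls and 1467 and 1593 CPM after DZNep, with 2 of 8 called lower. Markers of cells of the inner retina moved the other way: 7 of 10 bipolar markers were called lower (summed 2276 to 2526 against 1976 and 2061 CPM), 3 of 9 amacrine, 3 of 4 horizontal, 2 of 9 ganglion and 7 of 8 Müller markers (9434 to 9734 against 6548 and 7399 CPM). Of the RPE markers 4 of 6 were called higher (47.1 to 138 against 184 and 218 CPM), and none of 12 microglial markers was called (265 to 511 against 222 and 244 CPM). The median log2 fold change of these 12 was -0.76. At an unadjusted p under 0.05, 10 of the 12 were lower, against 17.2% of all genes. No gene of these lists was at 0 in all libraries. In whole retinas, more cells of a type and more RNA per cell cannot be told apart, and the part of these markers in the changes of the synapse genes was not tested.

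The wider machinery split. Of 27 other active zone and release genes 6 were called higher and 6 lower (median log2 fold change -0.13). Rims2, which codes for the RIM scaffold known at photoreceptor ribbons, went from 141 ± 6.74 CPM in the 4 controls to 202 ± 11 CPM in the 2 treated libraries (SD), up by 0.52 on the log2 scale (edgeR adjusted p = 0.000812). Sv2b, of a synaptic vesicle glycoprotein, went from 548 ± 24.1 to 743 ± 36.2 CPM (0.44, edgeR adjusted p = 0.00174). Of 14 genes of the cleft and the ON bipolar dendrite 4 were called higher and 6 lower (median -0.25). The higher ones with the smallest p were Gnb5 (0.65, edgeR adjusted p = 0.000999) and Rgs9bp (0.89, edgeR adjusted p = 0.00156), both parts of the complex that shuts off transducin in photoreceptors as well as of related complexes elsewhere. Rgs11, of the complex that shuts off the mGluR6 signal in ON bipolar cells, fell from 109 ± 8.88 to 73.3 ± 5.35 CPM (-0.58, edgeR adjusted p = 0.00181). The mGluR6 gene Grm6 itself fell (-0.57, edgeR adjusted p = 0.00345), and the rod bipolar marker Prkca fell by 0.19 on the log2 scale (edgeR adjusted p = 0.0274).

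**Figure D2:**
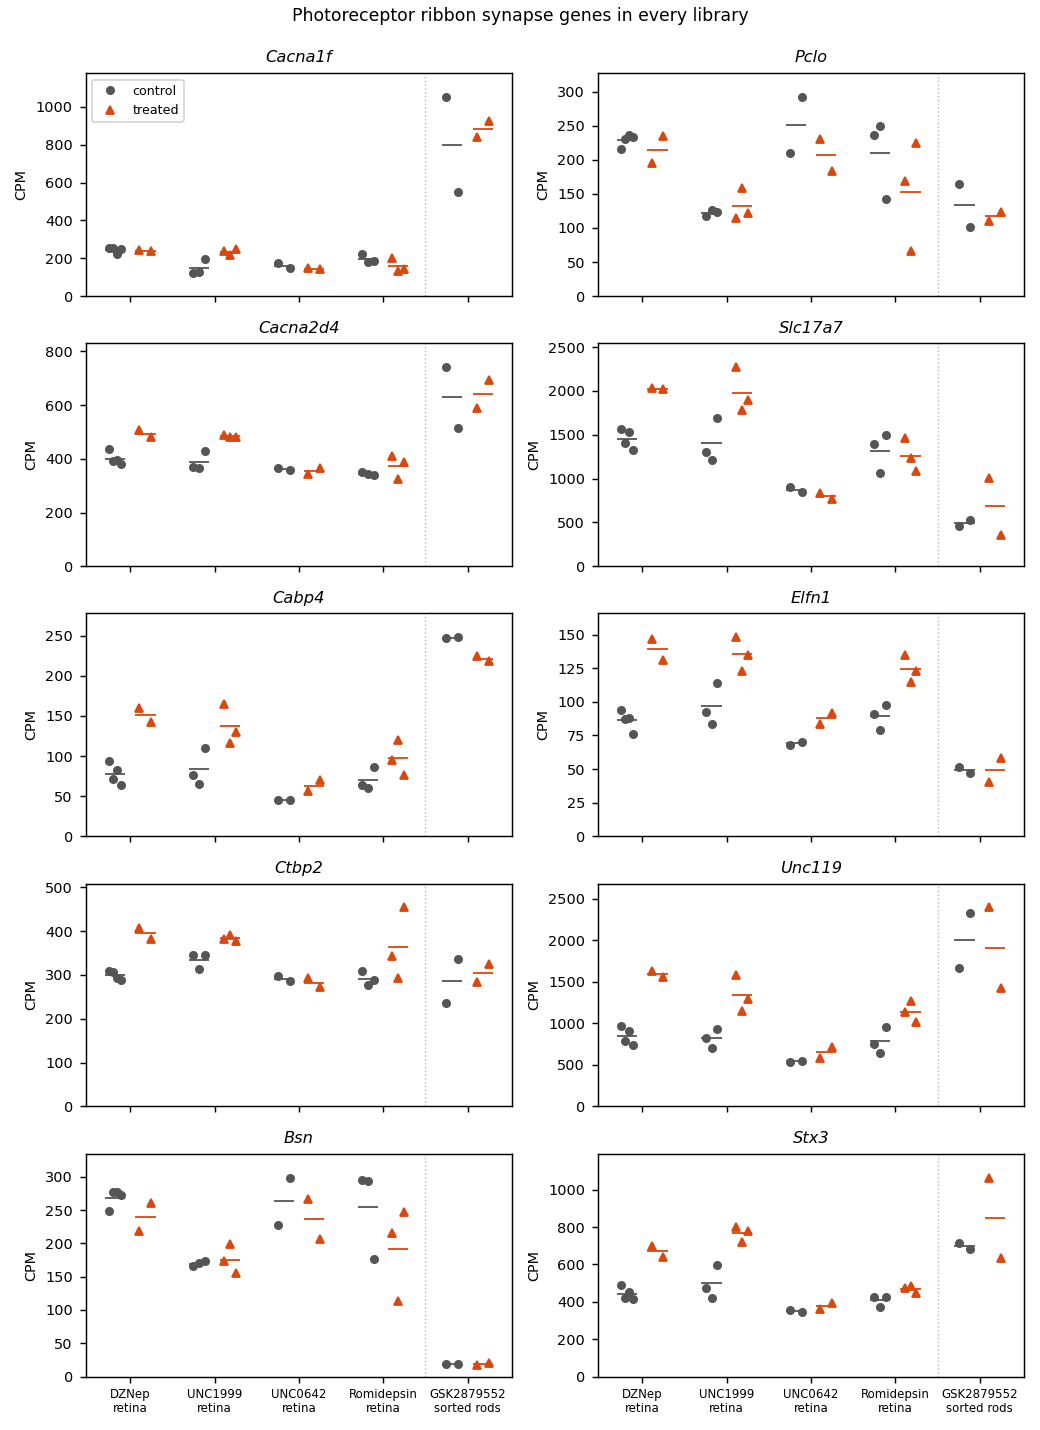
CPM of the 10 genes in every library, by experiment; grey circles are controls, orange triangles treated libraries, bars the means, and each panel starts at 0. After DZNep 7 genes have both treated libraries above all controls, and after UNC1999 8 genes have all 3 treated libraries above all controls, with control replicate 3 the highest or level with the highest control in each of these 8.

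UNC1999, the second EZH2 inhibitor, gave positive log2 fold changes for all 10 genes (median 0.49), but none passed the adjusted test, and 0.501% of 15775 genes were called higher and 0.101% lower. At an unadjusted p under 0.05, 8 of the 10 were higher (11.8% of all genes) and none lower (11.9% of all genes). These 8 were all but Bsn and Pclo, and their 3 treated libraries lay above all 3 controls, as in 13.9% of all genes.

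The channel pore gene Cacna1f was at 124, 125 and 197 CPM in the controls and at 237, 216 and 250 CPM after UNC1999, a log2 fold change of 0.66 ± 0.173 (SE; edgeR adjusted p = 0.0813). Cabp4 was at 76.8, 65.3 and 110 CPM against 165, 116 and 130 (0.70 ± 0.2, edgeR adjusted p = 0.0921), and Cacna2d4 at 368, 366 and 430 CPM against 487, 481 and 483 (0.32 ± 0.0783, edgeR adjusted p = 0.0731). In all of these the third control stood well above the other two and nearest to the treated libraries.

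Unc119 was at 822, 703 and 933 CPM against 1578, 1154 and 1289 (0.71 ± 0.142, edgeR adjusted p = 0.0562). Stx3 was at 476, 423 and 595 CPM against 803, 718 and 778 (0.62 ± 0.124, edgeR adjusted p = 0.0562). Slc17a7 was at 1298, 1212 and 1692 CPM against 2270, 1778 and 1894 (0.50 ± 0.148, edgeR adjusted p = 0.0993). Here too the third control was the highest, and for Slc17a7 it came near the lowest treated library. Elfn1 was at 92.6, 83.8 and 114 CPM against 148, 123 and 135 (0.49 ± 0.118, edgeR adjusted p = 0.0715), and Ctbp2 at 345, 314 and 346 CPM against 382, 392 and 377 (0.20 ± 0.0645, edgeR adjusted p = 0.123).

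Bsn (166, 170 and 173 against 173, 199 and 155 CPM) and Pclo (118, 127 and 123 against 115, 158 and 122 CPM) overlapped, with log2 fold changes of 0.05 ± 0.0912 and 0.10 ± 0.113. These were the smallest of the 10 changes after UNC1999.

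Control replicate 3 carried more rod RNA than the other controls: its 20 rod markers summed to 46571 CPM, against 29345 and 24962, and its cone markers to 1513 CPM, against 689 and 938. Without it, 7 of the 10 genes were called higher, namely Cacna1f, Cacna2d4, Cabp4, Slc17a7, Elfn1, Unc119 and Stx3, with 8.31% of all genes called higher. The same 7 were called by the likelihood ratio test (5.32% of all genes called higher), by DESeq2 (5.00%) and in a single fit of all 22 retinas (4.15%).

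After UNC1999 the rod markers summed to 84596, 62362 and 66077 CPM (median log2 fold change 1.00, none of 20 called). At an unadjusted p under 0.05, 18 of the 20 were higher and none lower, against 11.8% and 11.9% of all genes. Cone markers were at 1540, 1264 and 1477 CPM, also none of 8 called. Bipolar markers summed to 1852 to 1976 CPM in the controls and 1665 to 1822 CPM after UNC1999, Müller markers to 5024 to 6914 against 4688 to 6641 CPM and microglial markers to 266 to 432 against 165 to 209 CPM, with none called. At the same unadjusted threshold 1 of 8 cone markers was higher, and 1 of 10 bipolar markers was higher and 4 lower. Of the Müller markers 4 of 8 were lower, and of the microglial markers 11 of 12. RPE markers were the exception, with 5 of 6 called higher (102 to 115 against 334 to 383 CPM). The part of these cells in the changes of the synapse genes was not tested. Of the 27 active zone genes and the 14 cleft genes none was called, and their median log2 fold changes were 0.08 and -0.01.

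UNC0642 left the 10 genes on both sides of their controls. None was called, nor was any of the 16321 genes tested (0% called in either direction). At an unadjusted p under 0.05, 3 of the 10 were higher, as were 7.95% of all genes, and none was lower against 6.80%. Cabp4 was at 45.2 and 45.3 CPM in the controls and at 55.9 and 70.4 CPM after UNC0642 (0.48 ± 0.12, edgeR adjusted p = 0.299). Elfn1 was at 68.2 and 70.1 CPM against 83.8 and 91.9 (0.34 ± 0.0797, edgeR adjusted p = 0.299). Unc119 was at 535 and 552 CPM against 586 and 714 (0.26 ± 0.103, edgeR adjusted p = 0.337).

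These 3 and Stx3 (358 and 347 against 360 and 392 CPM) had both treated libraries above both controls, as in 26.9% of all genes, and Cacna1f (175 and 148 against 146 and 141 CPM) and Slc17a7 (900 and 845 against 840 and 771 CPM) had both below, as in 25.2%. Bsn (228 and 299 against 267 and 207 CPM), Pclo (210 and 292 against 231 and 183 CPM), Ctbp2 and Cacna2d4 overlapped. Treated replicate 2 held the higher value of Cabp4, Elfn1, Unc119 and Stx3 and also had the higher sum of rod markers, 18107 CPM against 12329 in treated replicate 1 and 11817 and 12134 in the controls. Its sum of bipolar markers was the lower, 1818 against 2125 CPM, and 2214 and 2233 CPM in the controls, and no marker of either list was called. With no filter on low counts, Cabp4 and Elfn1 were called (edgeR adjusted p = 0.00322 and 0.0236, with 1.92% of all genes called higher). The likelihood ratio test called 0 of the 10, with 0.600% of all genes called higher and 0.288% lower. DESeq2 called 0 of the 10, with 0.613% of all genes called higher and 0.319% lower.

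Romidepsin gave 3 genes with an unadjusted p under 0.05, all higher, and none that was called, where 0.573% of 16049 genes were called higher and 0.174% lower. The share of all genes that were higher at the unadjusted p was 9.92%. Elfn1 was at 90.9, 78.8 and 97.8 CPM in the controls and at 135, 115 and 123 CPM after Romidepsin (0.48 ± 0.124, edgeR adjusted p = 0.0894). Unc119 was at 753, 648 and 955 CPM against 1138, 1263 and 1016 (0.54 ± 0.162, edgeR adjusted p = 0.124). Cabp4 was at 64.1, 59.8 and 86.2 CPM against 95.2, 120 and 76.5 (0.47 ± 0.196, edgeR adjusted p = 0.231). The groups were apart for Elfn1 and Unc119, and also for Stx3 (424, 373 and 424 against 472, 485 and 446 CPM), as for 13.5% of all genes, but they overlapped for Cabp4. Elfn1 was called higher by the likelihood ratio test (4.09% of all genes called higher), Elfn1 and Unc119 by DESeq2 (3.71%), and these and Ctbp2 in the single fit of all 22 retinas (8.92%).

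The other genes fell on both sides of no change and overlapped. Ctbp2 was at 310, 277 and 288 CPM against 344, 292 and 454 (0.32 ± 0.165), and Cacna2d4 at 351, 344 and 339 CPM against 412, 324 and 387 (0.12 ± 0.123). Cacna1f was at 224, 182 and 184 CPM against 203, 132 and 145 (-0.30 ± 0.176, edgeR adjusted p = 0.391), and Slc17a7 at 1390, 1066 and 1501 CPM against 1468, 1233 and 1084 (-0.06 ± 0.166). Thus for Cacna1f treated replicates 2 and 3 were under every control, while treated replicate 1 was not.

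Bsn was at 296, 294 and 176 CPM against 215, 113 and 247, and Pclo at 236, 250 and 142 CPM against 169, 65.6 and 224, with log2 fold changes of -0.41 ± 0.295 and -0.45 ± 0.393 (edgeR adjusted p = 0.482 and 0.572). The low control and the lowest treated library were the same for both genes, control replicate 3 and treated replicate 2. Those 2 libraries were also lowest for long genes as a whole: the median of the 148 genes with over 15 kb of exon was 6.58 and 6.31 log2 CPM in them and 6.90 to 7.06 in the other Romidepsin and control libraries. Over the comparison, genes with over 15 kb of exon had a median log2 fold change of -0.23 and genes with up to 1 kb had 0.09. The part of transcript length in the values of Bsn and Pclo was not tested.

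**Figure D3:**
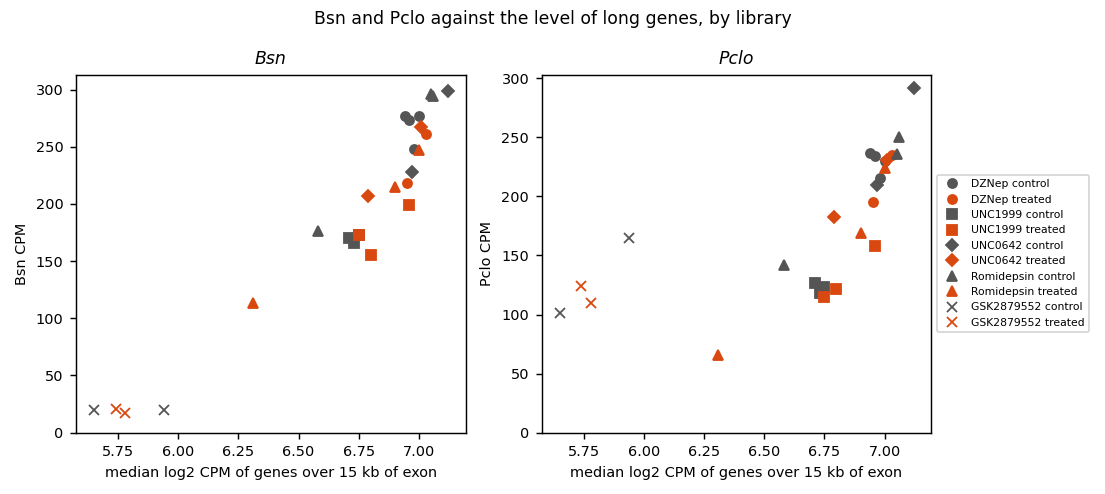
CPM of Bsn and Pclo in all 26 libraries (y axis) against the median log2 CPM of 148 genes with over 15 kb of exon (x axis); grey symbols are controls and orange ones treated. Among the Romidepsin libraries, treated replicate 2 (long-gene median 6.31) and control replicate 3 (6.58) lie lowest on both axes, and the sorted rods (5.65 to 5.94) lie at the left.

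Rod markers summed to 20161 to 32058 CPM in the Romidepsin controls and 31367 to 41551 CPM after treatment (median log2 fold change 0.41, none of 20 called). Cone markers summed to 1481, 895 and 1313 CPM in the controls and to 991, 582 and 445 CPM after Romidepsin, none of 8 called. At an unadjusted p under 0.05, 7 of the 8 were lower, against 9.46% of all genes. Other lists moved at that threshold too: 8 of 10 bipolar, 7 of 8 Müller and 7 of 12 microglial markers were lower. There 1 of 8 Müller markers was higher, as were 12 of 20 rod markers, against 9.92% of all genes. Microglial markers summed to 502 to 798 against 403 to 574 CPM, with 1 of 12 called lower. Bipolar markers summed to 2384 to 2563 against 1590 to 1885 CPM, with 1 of 10 called lower, and Müller markers to 8905 to 10733 against 6244 to 7213 CPM, with none called. That 1 gene was Grm6, which fell from 234 ± 28.0 to 118 ± 19.7 CPM (SD, n = 3 each; -0.98, edgeR adjusted p = 0.0338) and was also the only one called among the 14 cleft and ON bipolar genes. The call was lost without control replicate 2, control replicate 3 or treated replicate 3, where 0 genes of the whole table were called lower. Elfn1, whose product is the presynaptic partner of mGluR6, was at 0.48 on the log2 scale in the same libraries and did not pass the test. None of the 27 active zone genes was called (median -0.17). The part of these cells in the values of the synapse genes was not tested.

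In sorted rods no change of the 10 genes after GSK2879552 was called. None of them had an unadjusted p under 0.05, and 0% of the 14478 genes were called in either direction. At the unadjusted threshold 2.78% of all genes were higher and 2.13% lower. The likelihood ratio test called 0 of the 10, with 0.318% of all genes called higher and 0.173% lower. DESeq2 also called 0 of the 10, with 0.186% of all genes called higher and 0.111% lower. Cabp4 was at 247 and 248 CPM in the controls and at 225 and 218 CPM after GSK2879552 (-0.16 ± 0.187, edgeR adjusted p = 0.989), the only gene of the 10 without overlap, as were 17.3% of all genes in that direction. Slc17a7 was at 456 and 529 CPM against 1010 and 355 (0.47 ± 0.407, edgeR adjusted p = 0.987), so that the treated libraries lay on either side of the controls.

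Cacna1f was at 1051 and 548 CPM against 842 and 927, Unc119 at 1671 and 2326 CPM against 2395 and 1420 and Stx3 at 714 and 680 CPM against 1065 and 637. Replicates of 1 group thus differed by as much as 2.85 times, in Slc17a7, and 95% intervals were wide, from -0.46 to 1.40 for Slc17a7 and from -0.53 to 0.83 for Cacna1f. Bsn (19.3 in both controls, 17.0 and 20.6 CPM after GSK2879552), Pclo, Elfn1, Ctbp2 and Cacna2d4 had log2 fold changes between -0.18 and 0.09. Rod markers summed to 74647 and 108547 CPM in the controls and to 101204 and 88403 CPM in the treated rods, and bipolar markers to 560 and 856 against 601 and 563 CPM. Cone markers summed to 1784 and 3169 against 1509 and 1101 CPM, none called and 7 of 8 lower at an unadjusted p under 0.05.

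**Figure D4:**
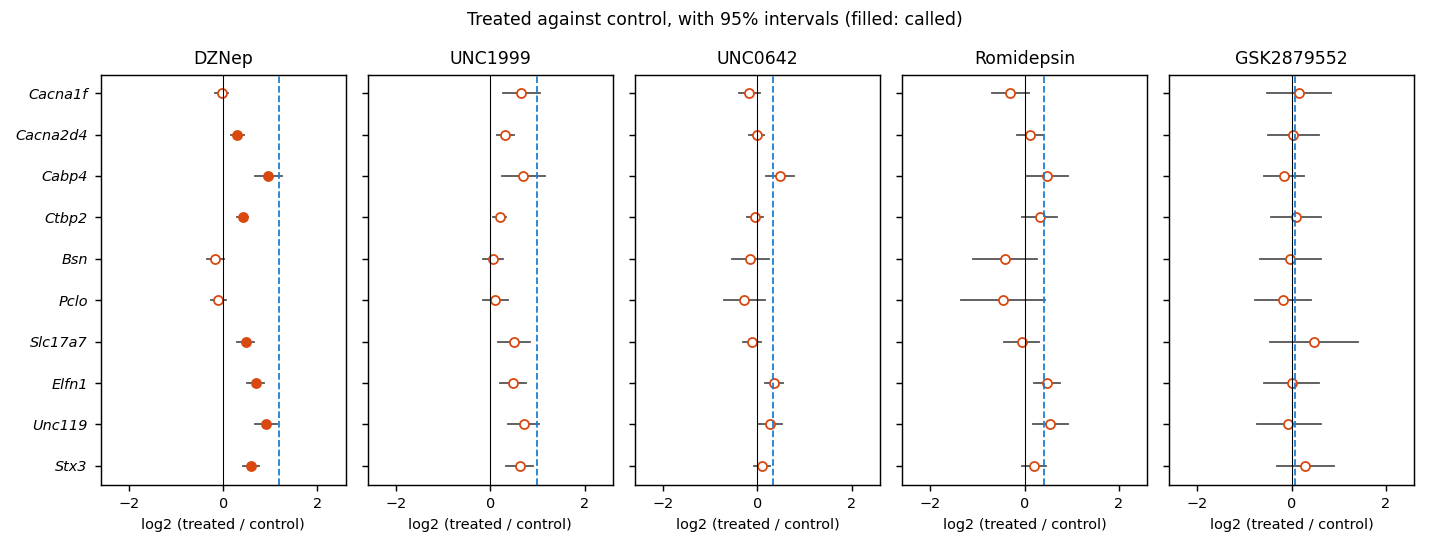
Log2 fold change, treated over control, with its 95% interval for the 10 genes in the 5 comparisons; filled circles passed an adjusted p under 0.05, and the dashed line is the median of the 20 rod markers (1.18, 1.00, 0.33, 0.41 and 0.06 from left to right). The filled circles are the 7 genes raised by DZNep, and all 10 genes lie to the left of the dashed line after DZNep and UNC1999.

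Whether 2 inhibitors differed in their effect on a gene was tested in a single fit of the 22 retinas, for the 6 pairs of inhibitors, with adjustment over 17274 genes in each pair. Of the 60 differences of the 10 genes, 1 passed: the effect of UNC1999 on Cacna1f exceeded that of Romidepsin by 0.95 on the log2 scale (95% interval 0.48 to 1.42, edgeR adjusted p = 0.0205), where 5.11% of all genes passed in that pair. It was no longer called without Romidepsin control replicate 1 (edgeR adjusted p = 0.0678), Romidepsin treated replicate 3 (0.0525), UNC1999 control replicate 1 (0.0712) or UNC1999 control replicate 2 (0.0612). The library names in the labels put the UNC1999 retinas in another series than the other retinas, so that series and inhibitor cannot be told apart in any pair with UNC1999.

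Cacna1f also gave the largest differences of the set between the 2 EZH2 inhibitors and between UNC1999 and UNC0642. Its change after DZNep was below that after UNC1999 by 0.68 (difference -0.68, 95% interval -1.17 to -0.20, edgeR adjusted p = 0.356), and that after UNC1999 was above that after UNC0642 by 0.83 (0.30 to 1.35, edgeR adjusted p = 0.258). Both passed without UNC1999 control replicate 3, at -0.94 (edgeR adjusted p = 0.0433) and 1.08 (edgeR adjusted p = 0.0123). That library was left out after the data were seen, and the shares of all genes that passed without it are not given here. In the UNC1999 comparison by itself, leaving it out took the share of all genes called higher from 0.501% to 8.31%. For the other 9 genes DZNep and UNC1999 differed by -0.21 to 0.26 and no difference had an unadjusted p under 0.05. Their intervals were not narrow, for example -0.35 to 0.86 for Cabp4 and -0.33 to 0.29 for Stx3, so this does not show that the inhibitors act alike on them.

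Against UNC0642 and Romidepsin, the effects of the EZH2 inhibitors were larger for Stx3 and Slc17a7 in all 4 pairs at an unadjusted p under 0.05, with all libraries kept. Between DZNep and UNC0642, 5 of the 10 genes passed that threshold, also Unc119 (0.65), Ctbp2 (0.46) and Cacna2d4 (0.33). Cacna2d4 also passed it between UNC1999 and UNC0642 (0.34). The shares of all genes at the unadjusted threshold in these pairs are not given here. For Stx3 the difference was 0.51 between DZNep and UNC0642 (0.16 to 0.85, edgeR adjusted p = 0.205), 0.53 between UNC1999 and UNC0642 (0.19 to 0.87, edgeR adjusted p = 0.26), 0.39 between DZNep and Romidepsin (0.08 to 0.70, edgeR adjusted p = 0.232) and 0.42 between UNC1999 and Romidepsin (0.11 to 0.72, edgeR adjusted p = 0.0997). For Slc17a7 the same 4 differences were 0.60, 0.62, 0.54 and 0.56 (edgeR adjusted p = 0.264, 0.291, 0.226 and 0.104). Elfn1 was at the other end: its change after UNC1999 and after Romidepsin differed by 0.00 (-0.32 to 0.33). None of these passed with all libraries. Without UNC1999 control replicate 3, Stx3 passed against UNC0642 (0.68, edgeR adjusted p = 0.0177) and Romidepsin (0.57, edgeR adjusted p = 0.00804) and Slc17a7 against Romidepsin (0.72, edgeR adjusted p = 0.0213). The difference of Slc17a7 between UNC1999 and Romidepsin also passed without Romidepsin control replicate 2 (0.71, edgeR adjusted p = 0.041) or treated replicate 1 (0.68, edgeR adjusted p = 0.0363). The shares of all genes that passed with a library left out are not given here, so these passes are not set against all genes. The shares of all genes that passed with all libraries were 0.00579% (DZNep and UNC1999), 0.0232% (DZNep and UNC0642), 0.289% (DZNep and Romidepsin), 0.0116% (UNC1999 and UNC0642) and 0.0174% (UNC0642 and Romidepsin).

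Cacna1f and the summed cone markers were in the same order in some groups of libraries and not in others. In the UNC1999 controls both were highest in replicate 3 (197 and 1513 CPM), which also had the highest rod sum. After Romidepsin both were highest in treated replicate 1 (203 and 991 CPM). Treated replicates 2 and 3 were in opposite order (Cacna1f 132 and 145 CPM, cone sum 582 and 445 CPM). The rod sum in treated replicates 1 to 3 (41551, 31367 and 32033 CPM) had the order of Cacna1f. In the UNC0642 controls the order was opposite (175 and 148 against 757 and 811 CPM), as it was in the control sorted rods (1051 and 548 against 1784 and 3169 CPM). In the DZNep controls replicate 4 had the highest cone sum (1999 CPM) but not the highest Cacna1f (250 CPM), and after UNC1999 Cacna1f was highest in replicate 3 (250 CPM) and the cone sum in replicate 1 (1540 CPM). The part of cones or rods in the values of Cacna1f was not tested.

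**Figure D5:**
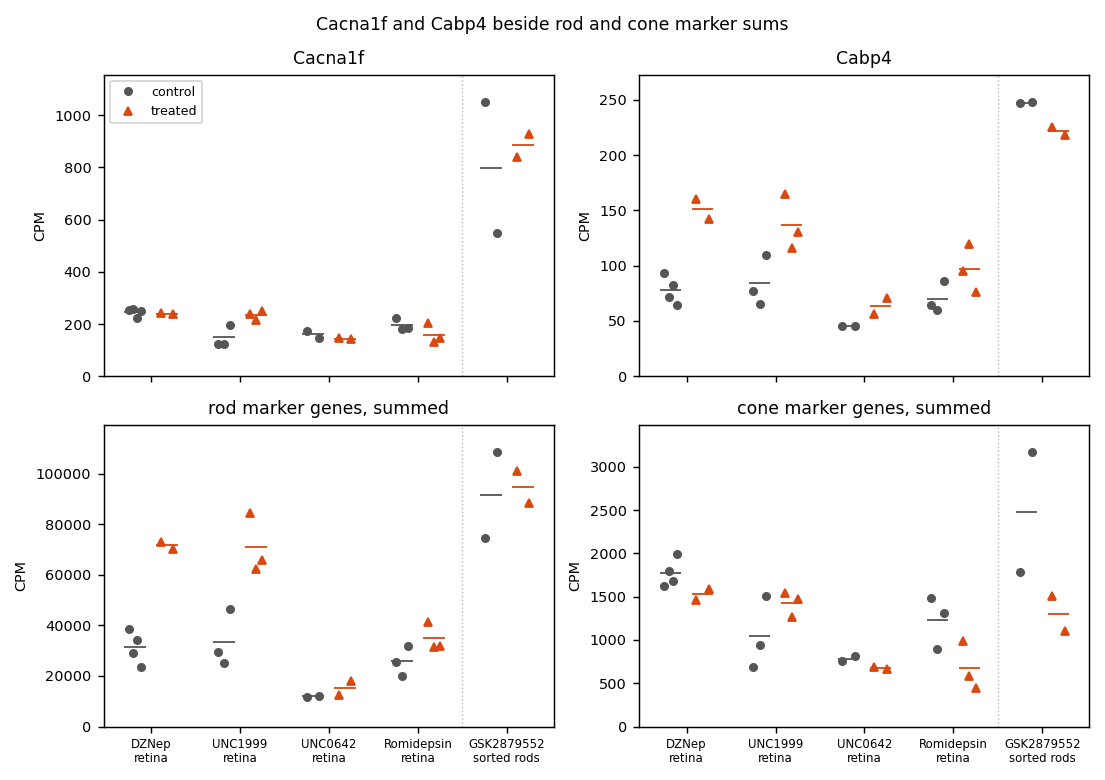
CPM of Cacna1f, Cabp4 and the summed rod and cone marker genes in every library, by experiment, each panel starting at 0; grey circles are controls, orange triangles treated libraries and bars means. After DZNep the rod sum (70366 and 72963) and Cabp4 are above all controls while Cacna1f and the cone sum (1467 and 1593) are not.

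The gene with the most alike set of 5 log2 fold changes was sought for each member among 13029 genes tested in all 5 comparisons, by the Euclidean distance. For Cacna1f it was Zdhhc23 (distance 0.129), with -0.05 after DZNep, 0.73 after UNC1999, -0.20 after UNC0642, -0.24 after Romidepsin and 0.06 after GSK2879552. For Unc119 it was Rgs20 (0.135), for Cabp4 1810009A15Rik (0.175), for Elfn1 BC096441 (0.099) and for Stx3 Dhrs3 (0.136). Cacna2d4 was closest to Syngr1 (0.0405), the gene of a synaptic vesicle protein, and Bsn to Ppfia2 (0.113), which codes for the active zone scaffold liprin-α2. Ctbp2 was closest to Stxbp3a (0.082), Pclo to Myo9a (0.113) and Slc17a7 to Sgtb (0.115). Within the set, Bsn and Pclo were nearest to each other (0.216), as were Cabp4 and Unc119 (0.255) and Cacna2d4 and Ctbp2 (0.263), whereas Cacna1f was farthest from any other member (0.659, from Cacna2d4). Over all genes the median distance from a member was 0.682 to 1.44. Some gene is always nearest, so these names, with or without a synaptic role, are a description and not a test.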

How the data were processed

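The authors aligned trimmed reads of 26 libraries to NCBIM37 (Ensembl release 67) with HISAT2 2.2.1 and counted them per gene with HTSeq 0.11.2, per the labels and the methods of the study. The deposited values are raw counts of 37991 genes, checked to be whole numbers.

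Samples were grouped by the labels. Counts of each experiment were filtered with filterByExpr, scaled by TMM (factors 0.938 to 1.06) and tested by the quasi-likelihood F test of edgeR 4.0.16 (R 4.3.3) in place of the authors' likelihood ratio test, which was kept as an alternative with DESeq2 1.42.0. P-values were adjusted by Benjamini-Hochberg over all genes tested. CPM are TMM-scaled, and a floor of 3 counts is 0.0825 to 0.218 CPM in retinas and 0.151 to 0.412 CPM in rods, for counting error only. Positions and exon lengths came from GENCODE M1 (symbols for 37205 genes).

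The members and lists were chosen with earlier results of these data known. Named besides the 10 members were at most 3 called genes with the smallest p per comparison from each synapse list, Grm6 and Prkca, and the gene with the nearest pattern to each member. Other marker genes (Slc32a1, Rpe65) were named after their values were seen. No pair of replicates was a copy (chi-square per gene at least 3.89). The test was checked on simulated counts. In the cleft list 1 further gene was not analysed here. A few genes that the naming rule covers are not reported here.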

Additional observations from a re-analysis of the deposited data

Results flagged for a closer look

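Bsn in the DZNep control retinas had a library that stood apart. Replicate 1 was at 248 CPM and the others at 273 to 277 CPM, and its gap to the nearest was 0.881 of the whole range, above Dixon's 95% limit for 4 libraries. The test was made for 10 genes, and chance gives about 1 such flag in 20 groups. The same library did not pass the limit for Pclo (0.702).

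The effects of UNC1999 and Romidepsin on Cacna1f differed by 0.95 on the log2 scale (95% interval 0.48 to 1.42, edgeR adjusted p = 0.0205; 1 of 60 differences tested for the 10 genes). All 3 UNC1999 libraries were above all 3 of their controls, while 2 of the 3 Romidepsin libraries were below all of theirs. The summed cone markers went from 689 to 1513 CPM in the controls to 1264 to 1540 CPM after UNC1999, and from 895 to 1481 CPM to 445 to 991 CPM after Romidepsin; their part in the difference was not tested.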

How the results depend on the processing

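Calls of the 7 genes raised by DZNep were the most stable, at 6 to 7 without each library in turn, but at 0 with an absolute log2 fold change above 1 required. With the replicate number as a block the count was 5 (5.58% of all genes called higher), with Slc17a7 (edgeR adjusted p = 0.0654) and Cacna2d4 (0.0734) lost. The number of genes called lower by DZNep, 0, was 1 (Bsn) with library totals alone, where 23.2% of all genes were called lower, and 0 to 1 without each library. Library totals alone put the median of all genes at -0.117 for DZNep and -0.109 for UNC1999.

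For UNC1999 the count called higher, 0, was 7 by the likelihood ratio test, by DESeq2 and in the fit of 22 retinas, 6 with no filter on low counts (2.35% of all genes), 2 with library totals alone (1.52%) and 0 to 7 without each library, the 7 without control replicate 3. For UNC0642 it was 2 with no filter (1.92% of all genes) and 1 (Cabp4) with the replicate block (244 of 16321 genes). For Romidepsin it was 1 by the likelihood ratio test, 2 by DESeq2 and 3 in the fit of 22 retinas. For GSK2879552 it was 0 under every alternative run, with 0.318% of all genes called higher by the likelihood ratio test. The alternatives with RLE normalization and with at least 10 counts in every library changed none of these counts by over 1.5 times.

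Counts of differences between inhibitors, with libraries left out in turn (a choice made after seeing the data), came to 0 to 1 for DZNep and UNC1999, 0 to 2 for UNC1999 and UNC0642 and 0 to 3 for UNC1999 and Romidepsin. The shares of all genes that passed in these fits are not given here.

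Signs turned only in values that had not passed a test. With library totals alone Bsn and Pclo after UNC1999 were at -0.06 and -0.0016. Elfn1 after GSK2879552, at -0.00042, was 0.01 by DESeq2, RLE normalization and at least 10 counts in every library, and 0.00046 with no filter. Without each library in turn the log2 fold change of Pclo after DZNep ran from -0.23 to 0.03, and after UNC1999 Bsn from -0.05 to 0.13 and Pclo from -0.04 to 0.19. After UNC0642 Cacna2d4 ran from -0.07 to 0.02, Ctbp2 from -0.10 to 0.0019 and Bsn from -0.35 to 0.05, and after Romidepsin Slc17a7 from -0.19 to 0.04. In the sorted rods Cacna1f ran from -0.25 to 0.69, Cacna2d4 from -0.21 to 0.31, Ctbp2 from -0.15 to 0.37, Bsn from -0.18 to 0.10, Pclo from -0.49 to 0.21, Slc17a7 from -0.47 to 1.04, Elfn1 from -0.29 to 0.26, Unc119 from -0.49 to 0.26 and Stx3 from -0.12 to 0.61.

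Deviations of same-numbered libraries correlated with both signs: at -0.226 and -0.000444 in DZNep, -0.313, 0.268 and -0.0602 in UNC1999, 0.226 in UNC0642, 0.255, -0.09 and -0.351 in Romidepsin and -0.0986 in the sorted rods. In a group of 2 libraries the deviations are mirror images of each other. These values therefore cannot settle whether replicate numbers pair the libraries. The cause of the changes in the synapse genes was not tested.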
